A study of Mus musculus with 2 samples.

Results

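Type IX collagen is made from Col9a1, Col9a2 and Col9a3, and the peaks described are those called for 2 SOX transcription factors around these genes in mouse primary rib chondrocytes. The members are all peaks of a Sox6 list and of a Sox9 list whose centre lies in 1 of 3 windows set on the mouse genome build mm9: chromosome 1 from 24150000 to 24300000 for Col9a1, chromosome 4 from 120690000 to 120740000 for Col9a2 and chromosome 2 from 180315000 to 180365000 for Col9a3. They number 119 of 102972 peaks, with 93 of 79107 Sox6 peaks and 26 of 23865 Sox9 peaks. The windows were set by position, and the number, width, list place and overlap of the peaks inside them were not part of that rule. They were, however, chosen with earlier results of these data known.

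The Sox6 list comes from 1 chromatin immunoprecipitation (ChIP-seq) library made with an anti-Sox6 antibody from untreated wild-type ICR pups at postnatal day 1, and the series holds 1 input DNA library, without antibody, of the same strain, age and cells. Ribs were trimmed to keep proliferating and prehypertrophic cartilage, and cells were fixed directly after enzymatic release. The authors obtained the Sox9 list by processing 2 earlier samples of mouse rib chondrocytes again, with peaks called in the same way. For those samples the strain and age were not given here, so the factor, the animals and the library cannot be told apart where the lists differ. No expression was measured, so the labelled cell type could not be checked against markers.

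Each list gives only the chromosome, start and end of its peaks. There is 1 list per factor and no score, read count or replicate, so the depth is unknown, no difference was tested, and the intervals given (95% exact binomial, Clopper-Pearson) cover counting error only and treat neighbouring peaks as independent. A peak is called shared where 1 bp or more of it is also covered by the other factor's list. The place of a peak is its row number in the deposited list, whose order is not documented.

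Type IX collagen is a fibril-associated collagen with an interrupted triple helix. Its 3 different chains assemble into 1 molecule that decorates the surface of cartilage fibrils built from type II collagen and links them to other matrix components. Col9a1 encodes the alpha-1 chain and has an upstream start used in cartilage and a downstream start used in other tissues such as the eye. Col9a2 encodes the alpha-2 chain, which can carry a glycosaminoglycan chain, and Col9a3 encodes the alpha-3 chain. SOX9, an HMG-box protein, is the main activator of cartilage matrix genes and cartilage does not form without it. SOX6, a SOXD protein without a known activation domain of its own, works beside it at many of those genes.

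No mm9 sequence was used, so peak sequences are not printed and peaks are not placed on exons, introns or start sites. To show the reference sequence at gene starts, the 250 bases before each start in RefSeq for build GRCm38.p6 are given here. They are given for Col9a1 and Col9a2, 5′ to 3′ on the plus strand. The RefSeq promoter sequences used here held no match for Col9a3. Capitals mark a match to the set of 8 heptamers described below, which was chosen after the sequences had been seen. These coordinates are of another build than the peaks and must not be compared with them. The bases shown before the upstream Col9a1 start are chr1:24177360-24177609, and those before the downstream Col9a1 start are chr1:24194953-24195202. Those before the Col9a2 start are chr4:121039316-121039565.
Col9a1 upstream start: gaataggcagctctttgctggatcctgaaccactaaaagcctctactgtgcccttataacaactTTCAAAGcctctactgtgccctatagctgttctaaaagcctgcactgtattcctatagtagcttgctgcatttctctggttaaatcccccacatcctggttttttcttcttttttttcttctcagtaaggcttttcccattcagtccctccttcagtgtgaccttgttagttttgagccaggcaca
Col9a1 downstream start: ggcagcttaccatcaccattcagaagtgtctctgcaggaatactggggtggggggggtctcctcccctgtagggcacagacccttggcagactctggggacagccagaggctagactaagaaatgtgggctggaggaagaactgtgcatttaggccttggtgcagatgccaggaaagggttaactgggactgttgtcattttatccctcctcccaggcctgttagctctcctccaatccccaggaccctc
Col9a2 start: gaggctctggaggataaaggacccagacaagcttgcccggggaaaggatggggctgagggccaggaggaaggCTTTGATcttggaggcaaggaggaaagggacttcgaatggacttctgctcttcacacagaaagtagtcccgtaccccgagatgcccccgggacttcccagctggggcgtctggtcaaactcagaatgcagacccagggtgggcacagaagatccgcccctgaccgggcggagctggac
For these 3 starts, the 250 bases before and 50 bases after were searched on both strands. No exact match to the SOX core motifs named next was found. This absence holds for those exact strings only, and a wider set described below matched before the upstream Col9a1 start and the Col9a2 start. The motifs searched overlap each other, and among 32851 such RefSeq promoters 31.0% held ACAAT while 10.7% held AACAAT. The motif ACAATG occurred in 12.6% of promoters, whereas ACAAAG occurred in 18.7%. A wider set, chosen after the sequences had been seen, consisted of the 8 heptamers NNCAANG in which each N is A or T, which overlap those motifs in part. It matched TTCAAAG from 186 bases before the upstream Col9a1 start and, on the reverse strand, ATCAAAG from 178 bases before the Col9a2 start. At least 1 of these heptamers was present in 24.6% of all promoters. The matches describe letters and show no binding.

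Both factors had many more called peaks around the type IX collagen genes than over the genome. The 3 windows together held 37.2 Sox6 peaks per 100 kb, against 3.00 over the whole list, and 10.4 Sox9 peaks per 100 kb, against 0.904. Sox6 peaks covered 6.80% of the window length, against 0.507% of the genome range, and Sox9 peaks covered 2.03%, against 0.175%. The windows differed among themselves. Over the full Sox6 list Col9a1 had the highest density, with 65 peaks in 150 kb or 43.3 per 100 kb. Col9a3 followed with 19 peaks in 50 kb (38.0 per 100 kb), and Col9a2 was sparsest with 9 (18.0 per 100 kb). With the first 23865 Sox6 peaks alone, as many as the Sox9 list holds, Col9a3 came first at 10.0 per 100 kb, then Col9a1 at 8.67 and Col9a2 at 4.0, and in the first 50% of the Sox6 list Col9a3 and Col9a1 were level at 16.0. For Sox9 Col9a3 was first at 8 peaks (16.0 per 100 kb), Col9a1 next at 15 (10.0 per 100 kb) and Col9a2 last at 3 (6.0 per 100 kb). Sox6 peaks thus outnumbered Sox9 peaks by 4.33 to 1 at Col9a1, 3.00 to 1 at Col9a2 and 2.38 to 1 at Col9a3, against 3.31 to 1 over the whole lists.

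To place these numbers, all tiles of the same length were counted from the first base to the last peak of each chromosome, unmappable sequence included. Of 17584 tiles of 150 kb, 8 (0.0455%) held as many Sox6 peaks as the Col9a1 window or more, and 1 of these 8 has the bounds of that window. The median tile held 2 Sox6 peaks. For Sox9, 43 tiles (0.245%) held 15 peaks or more. The Col9a3 window stood similarly high among 52778 tiles of 50 kb, with 81 tiles (0.153%) at 19 Sox6 peaks or more and 92 (0.174%) at 8 Sox9 peaks or more. Col9a2 was less extreme: 2.39% of tiles reached its 9 Sox6 peaks and 4.85% its 3 Sox9 peaks. With the Sox6 list limited to its first 23865 peaks, the length of the Sox9 list, the windows held 13, 2 and 5 Sox6 peaks for Col9a1, Col9a2 and Col9a3. Then 0.267% of tiles reached the Col9a1 number, 10.8% that of Col9a2 and 0.894% that of Col9a3.

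**Figure D1:**
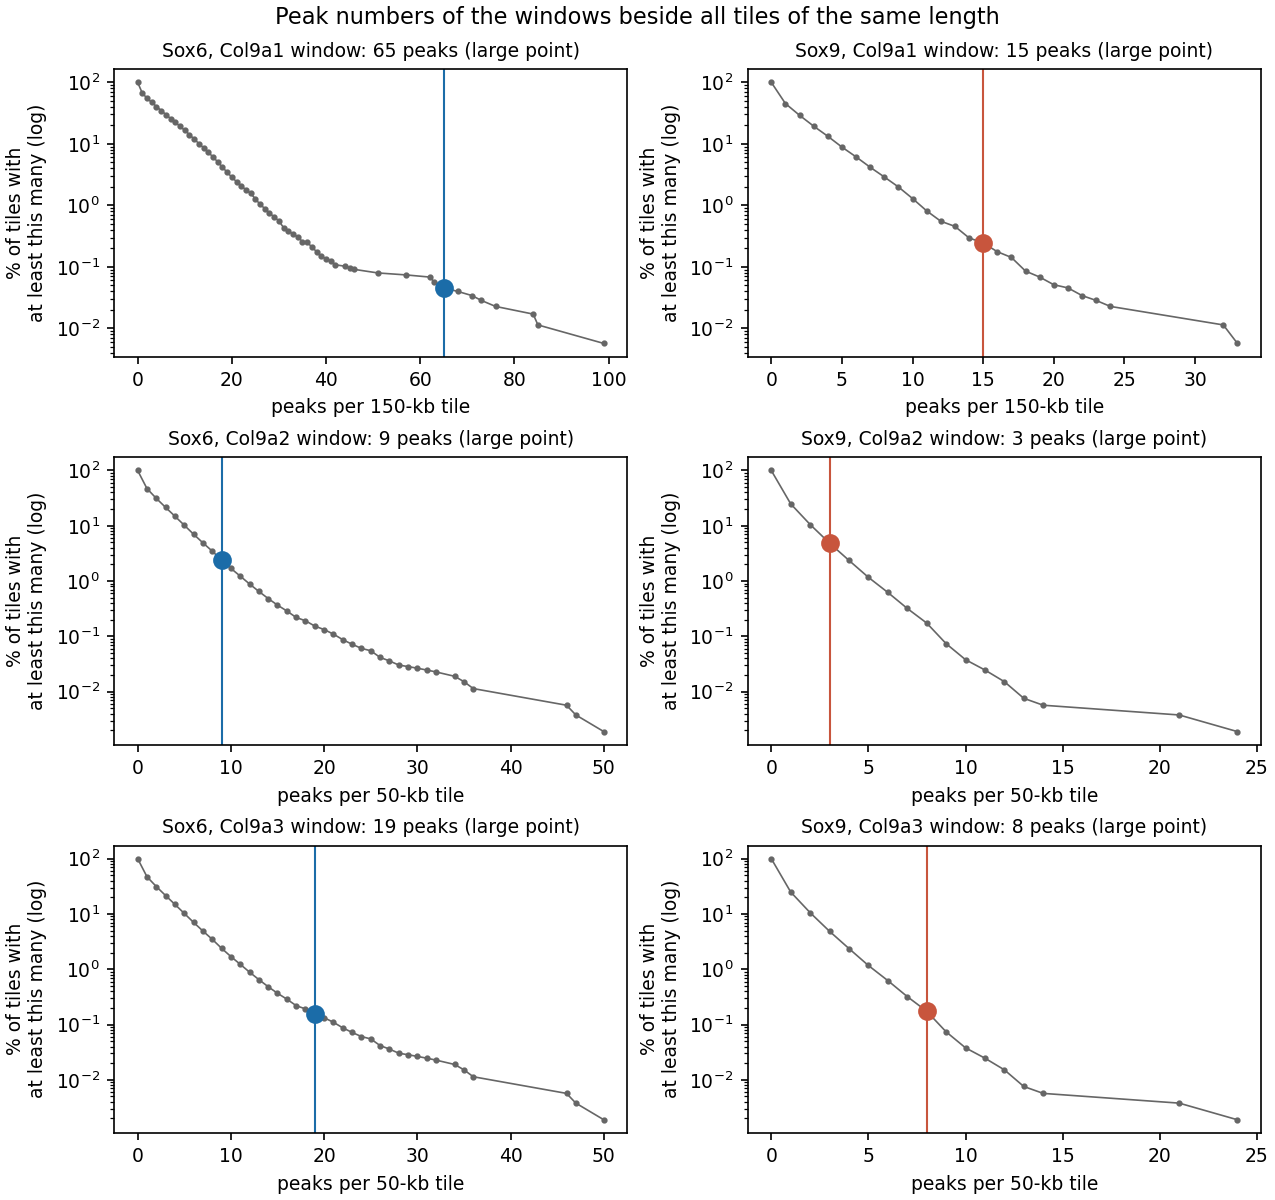
Percentage of genome tiles (y, log scale) holding at least a given number of peaks (x), for Sox6 at left and Sox9 at right, with tiles of 150 kb for Col9a1 and 50 kb for Col9a2 and Col9a3. Each grey point is a number of peaks with the percentage of tiles that held at least that many. The large point with its vertical line is the window. Col9a1 with 65 Sox6 peaks and Col9a3 with 19 lie far into the tail, Col9a2 with 9 less so.

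The peaks stopped short of the window edges on most sides. At Col9a1 the Sox6 peaks spanned 91.7 kb, from 24176528 to 24268241, and the Sox9 peaks 75.8 kb, from 24176263 to 24252030. The next Sox6 peaks outside that window were 5.78 kb before it and 24.5 kb after it. Flanks of 150 kb on the lower and upper side held 8 and 6 Sox6 peaks and 5 and 1 Sox9 peaks, against 65 and 15 inside. At Col9a3 the flanks of 50 kb held 2 and 1 Sox6 peaks, against 19 inside, and 2 and 0 Sox9 peaks, against 8 inside. Col9a2 was not set off from its lower side in this way. Its flanks held 7 and 2 Sox6 peaks, against 9 inside, and a Sox6 peak centred just before the window reached 0.02 kb into it. In the GRCm38 gene order the protein-coding neighbours are Fam135a and Col19a1 for Col9a1, Smap2 and Zmpste24 for Col9a2, and Ogfr and Tcfl5 for Col9a3. Among annotated genes of any kind, ordered by their lower coordinate, the adjacent ones include the pseudogene Gm30756 beside Col9a1 and Mir7015 beside Col9a2. How the window peaks divide between the collagen genes and these neighbours was not analysed here.

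With clusters defined as at least 3 successive peaks of a list, each centre within 12.5 kb of the next, all 65 Sox6 peaks of Col9a1 formed 1 cluster. Only 10 of the 9068 Sox6 clusters of the genome held more peaks. The 19 Sox6 peaks of Col9a3 formed another, with 137 clusters larger, and the 9 of Col9a2 belonged to a cluster of 12 that began outside the window. The Sox9 peaks of Col9a1 fell into clusters of 6 and 9 peaks, and 32 of 1796 Sox9 clusters were larger than the second. At Col9a3, 7 of the 8 Sox9 peaks formed a cluster of 14.4 kb and the eighth stood alone. Neighbouring Sox6 centres were a median of 1064 bp apart at Col9a1, 1614 bp at Col9a3 and 2906 bp at Col9a2. No 2 peaks of the same list overlapped in any window.

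**Figure D2:**
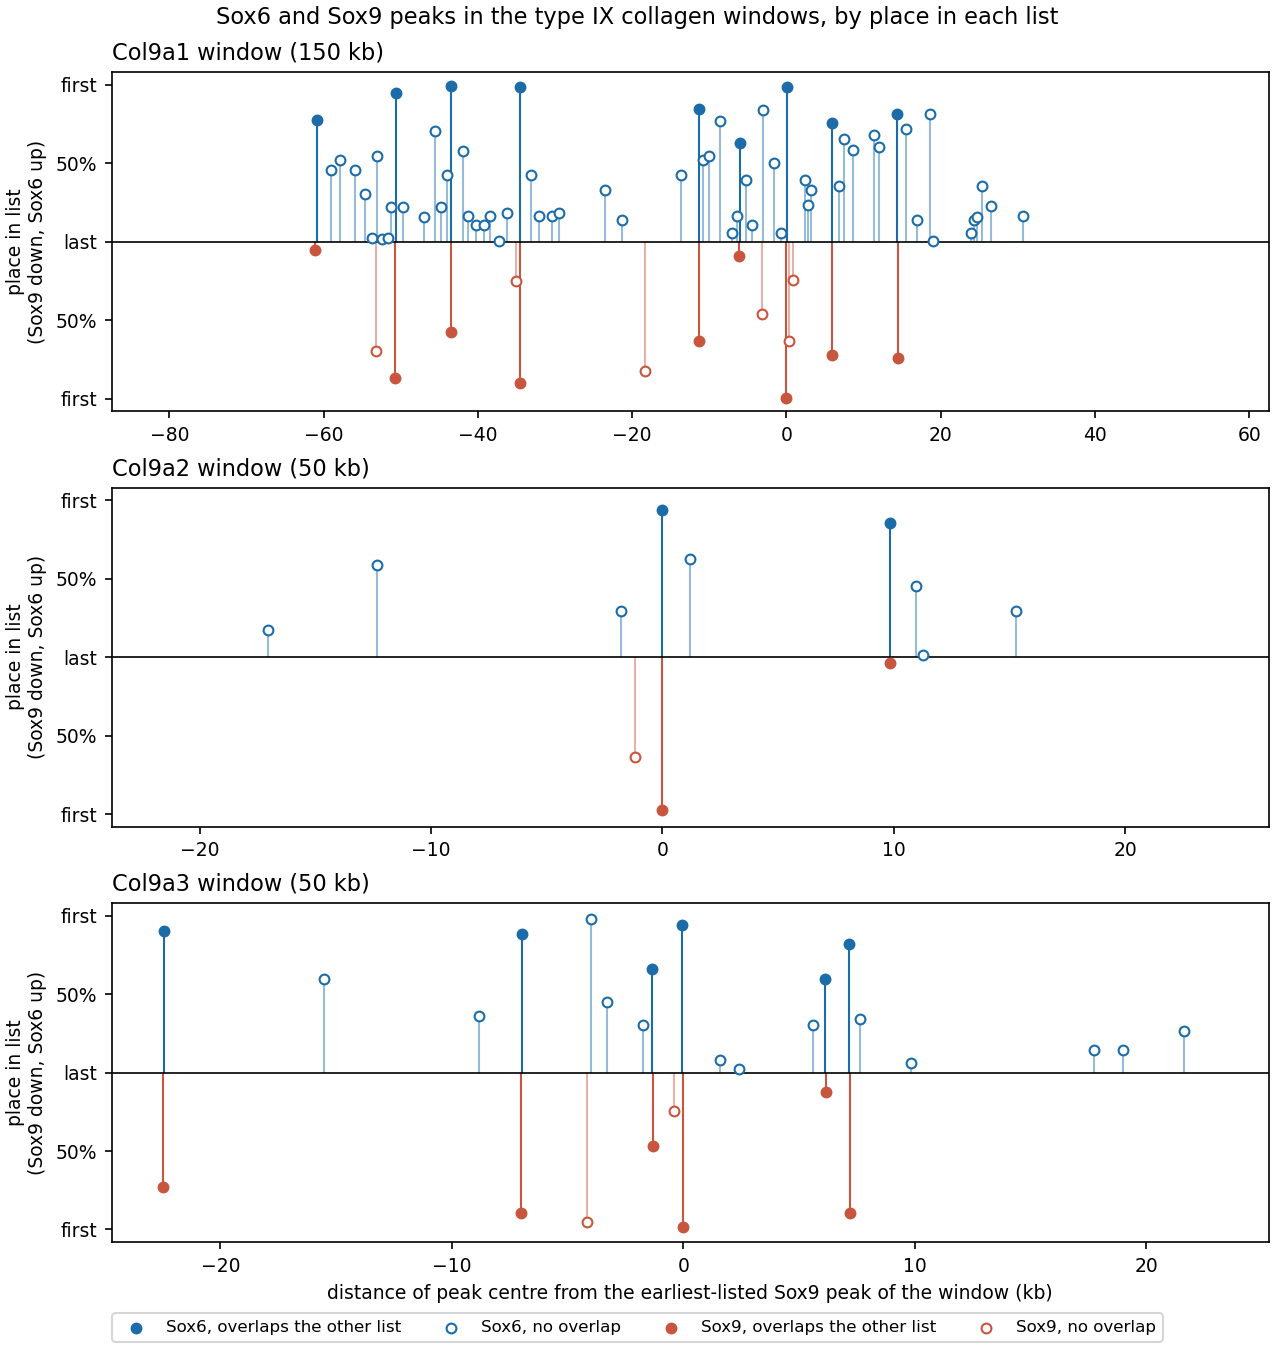
Peaks of the windows by distance (x, kb) from the earliest-listed Sox9 peak of each window. Stem length (y) is the place in the list, with the first place farthest from the zero line, Sox6 up and Sox9 down; filled points overlap the other list. The filled Sox6 points all lie in the first 50% of the Sox6 list, while most open Sox6 points lie in the second 50%.

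The Col9a1 window held 9 sites where the lists met, from 9 of its 65 Sox6 peaks (background 23.1% over the whole list) and 9 of its 15 Sox9 peaks (background 76.7%). The earliest-listed Sox9 peak of all 3 genes, at place 125, ran from 24237354 to 24237586 and overlapped the Sox6 peak at place 870, from 24237446 to 24237607, by 141 bp. The Sox6 peak at place 720, from 24193913 to 24194039, overlapped the Sox9 peak at place 10105 by 122 bp. A Sox6 peak at place 915, from 24202958 to 24203038, lay wholly inside the Sox9 peak at place 2443, from 24202883 to 24203044. These 3 Sox6 peaks were the earliest listed of the 3 windows, and each was shared. The Sox6 peak from 24186808 to 24186899 (place 4254) also lay wholly inside a Sox9 peak, from 24186669 to 24186900 (place 3124).

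Further along Col9a1, the Sox6 peak from 24226006 to 24226156 (place 12450) met the Sox9 peak at place 8806 by its whole width of 151 bp. The one from 24243338 to 24243459 (place 19391) met the Sox9 peak at place 6599 by its whole 122 bp. The one from 24251805 to 24251915 (place 14712) met the Sox9 peak at place 6156 by 107 bp. In these cases the overlap took all or nearly all of the Sox6 peak. The remaining overlaps were marginal and involved late Sox9 peaks. The Sox6 peak from 24231383 to 24231611 met the Sox9 peak at place 21683 by 30 bp. The one from 24176528 to 24176613 met the Sox9 peak at place 22663, from 24176263 to 24176528, by a single base (1 bp).

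At Col9a2 the main site paired the Sox9 peak at place 574, from 120713740 to 120713853, with the Sox6 peak at place 4837, from 120713749 to 120713797. The Sox6 peak was 49 bp wide and lay wholly inside the Sox9 peak. The other shared site joined the Sox6 peak at place 11672, from 120723574 to 120723710, with a Sox9 peak from 120723527 to 120723707, by 134 bp. That Sox9 peak came late, at place 22920, although the Sox6 peak on it was in the first 14.8% of its list. The third Sox9 peak, from 120712519 to 120712744 (place 8670), was 372 bp from the nearest Sox6 peak. The third earliest Sox6 peak, from 120714901 to 120715074 (place 29434), was unshared.

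At Col9a3 the earliest Sox9 peak, at place 319, ran from 180339567 to 180339827 and contained the Sox6 peak at place 4720, from 180339577 to 180339712. A second close pair, with centres 4.5 bp apart, lay near the lower edge of the window: the Sox6 peak from 180317180 to 180317302 (place 7838) was inside the Sox9 peak from 180317159 to 180317314 (place 6510). The Sox6 peak from 180346813 to 180346934 (place 14296) was inside the Sox9 peak at place 2549. In each of these pairs the Sox6 peak was nested in the Sox9 peak. The Sox6 peak from 180332681 to 180332806 (place 9118) met the Sox9 peak at place 2544 by 99 bp. The Sox6 peak from 180338284 to 180338381 (place 26783) was nested in the Sox9 peak at place 12715. The Sox6 peak from 180345756 to 180345871 (place 31692) met the Sox9 peak at place 20984 by 78 bp.

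The earliest-listed Sox6 peak of Col9a3, at place 1708 from 180335647 to 180335768, was not shared, although it was in the first 2.16% of its list. A Sox9 peak of 48 bp, from 180335503 to 180335550 at place 1175, ended 96 bp before it. Early peaks of both lists thus lay side by side without touching. It was the only Sox6 peak of the first 10% of the list in these windows that was unshared: 7 of 8 were shared, against 70.8% of the first 10% over the whole list.

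Summed over the windows, 17 of 93 Sox6 peaks were shared, or 18.3% (11.0 to 27.6), against 23.1% over the whole list. Of the Sox9 peaks 17 of 26 were shared, or 65.4% (44.3 to 82.8), against 76.7%. Both intervals include the value of the whole list, so under the rule of 1 bp and at full list length no difference from the whole list was seen. The window shares change under other rules, for which values are given further on, only some of them beside a whole-list share. With a gap of up to 1000 bp, the Sox6 interval (32.8 to 53.7) lay just above the whole-list 32.3%. The Sox9 interval for that gap included its whole-list value. By gene, 9 of 65 Sox6 peaks were shared at Col9a1 (13.8%, 6.53 to 24.7), 2 of 9 at Col9a2 (22.2%, 2.81 to 60.0) and 6 of 19 at Col9a3 (31.6%, 12.6 to 56.6). For Sox9 the counts were 9 of 15 at Col9a1 (60.0%, 32.3 to 83.7), 2 of 3 at Col9a2 (66.7%, 9.43 to 99.2) and 6 of 8 at Col9a3 (75.0%, 34.9 to 96.8). The intervals of the genes overlap widely, and differences between them were not tested.

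**Figure D3:**
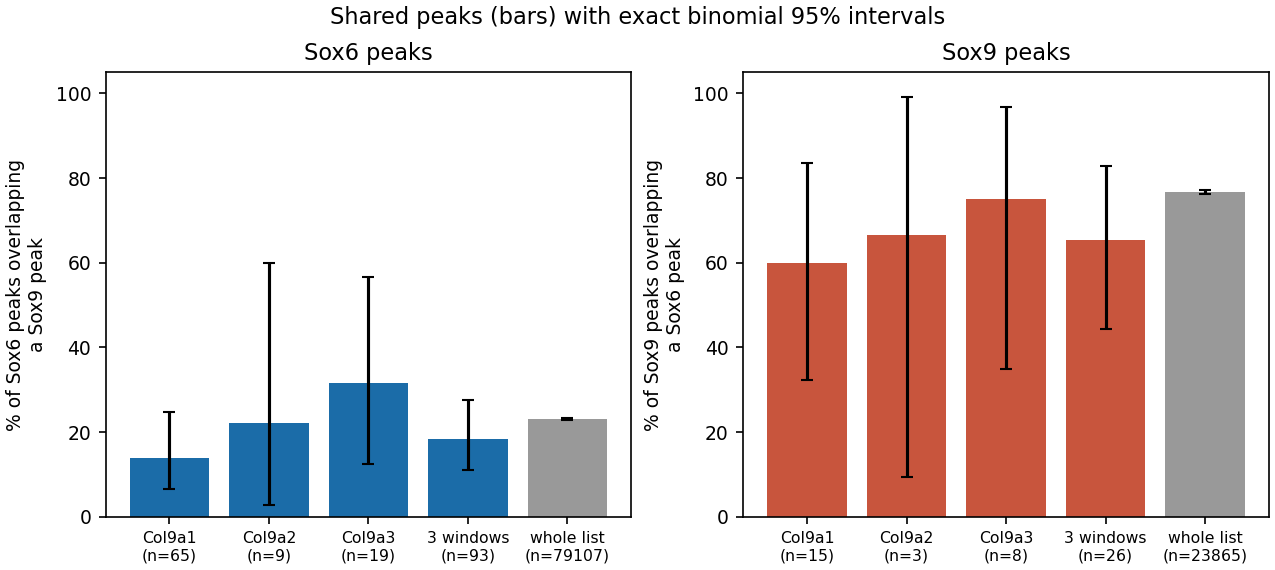
Percentage of peaks shared with the other list (bars, y axis from 0) in each window, in the 3 windows together and in the whole list (grey), with 95% exact binomial intervals as error bars. All window intervals of both lists include the whole-list value of 23.1% for Sox6 or 76.7% for Sox9.

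Most Sox9 peaks without overlap were still close to Sox6. Of 9 unshared Sox9 peaks, 8 had a Sox6 peak edge within 1000 bp, against 60.6% of unshared Sox9 peaks over the whole list, and 5 of the 9 had a gap of at most 200 bp, against 33.5%. The median gap to the edge of the Sox6 peak with the nearest centre was 172 bp, against 476 bp over the whole list. These values rest on 9 peaks, in windows where Sox6 centres were a median of 1171 bp apart. The part of that Sox6 density in these values was not tested. At Col9a1 the Sox9 peak from 24234305 to 24234415 (place 12872) was 12 bp from a Sox6 peak, from 24234428 to 24234534 at place 12877 of the Sox6 list. The one from 24184269 to 24184370 (place 7259) was 28 bp from a Sox6 peak. Beside the leading Col9a1 site lay 2 more Sox9 peaks, from 24237724 to 24237962 (place 8768) and from 24238096 to 24238532 (place 18032), with gaps of 116 and 488 bp to the Sox6 peak of that site. The second of them falls outside the rule for naming and is given because it is the widest Sox9 peak of the windows, at 437 bp. A Sox9 peak from 24202274 to 24202435 (place 17880) was 522 bp from the Sox6 peak at place 915. At Col9a3 the one from 180339183 to 180339404 (place 18073) was 172 bp from the Sox6 peak of the leading site.

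The single Sox9 peak that had no Sox6 peak within 1000 bp was at Col9a1, from 24219023 to 24219150. It was at place 4225, in the first 17.7% of the Sox9 list, and the nearest Sox6 peak was 2840 bp away at place 68258. The 10 kb around it, from 24210001 to 24220000, held 2 Sox6 peaks, the fewest of any 10 kb bin within the span of the Col9a1 Sox6 peaks, where the other bins held 3 to 10. Counting peaks whose edges lay up to 1000 bp apart, 25 of 26 Sox9 peaks had a Sox6 peak on or beside them (96.2%, 80.4 to 99.9), against 90.8% over the whole list, and 40 of 93 Sox6 peaks had a Sox9 peak (43.0%, 32.8 to 53.7), against 32.3%. The windows hold more peaks of both lists than the genome does, and the part of that density in these shares was not tested.

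**Figure D4:**
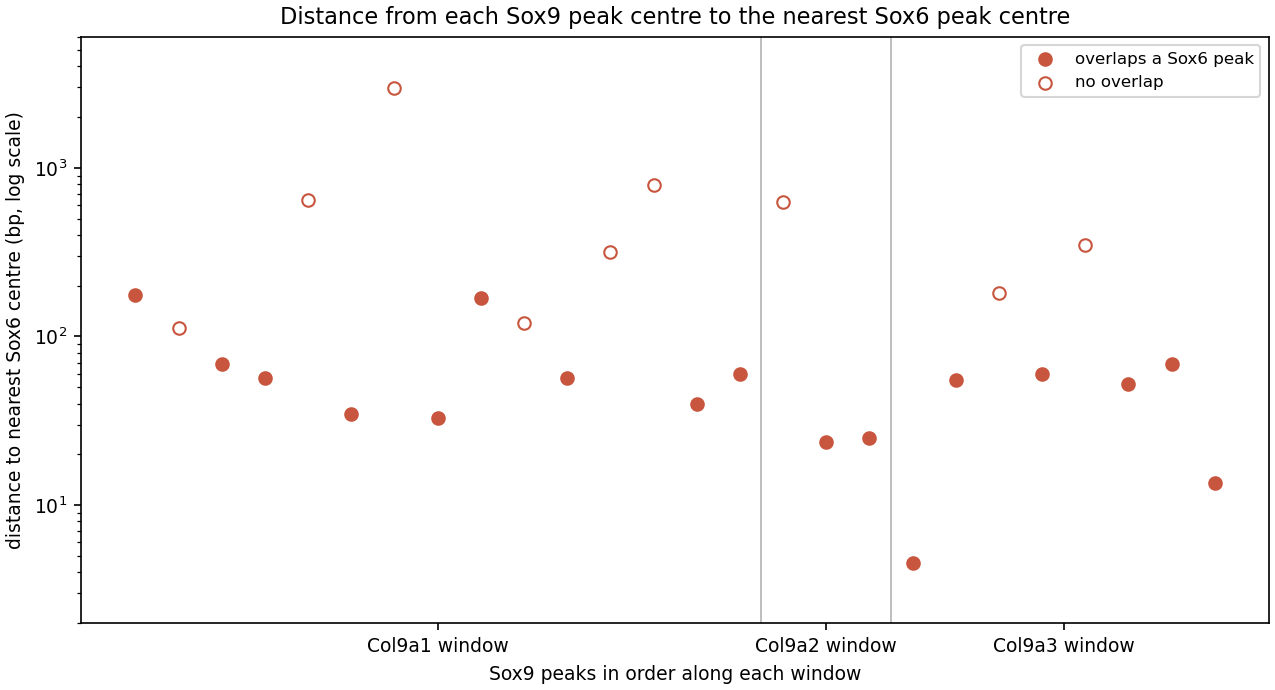
Distance from the centre of each of the 26 Sox9 peaks to the nearest Sox6 centre (y, bp, log scale), in order along the windows. Filled points overlap a Sox6 peak and lie between 4.5 and 175 bp; open points do not overlap, and the highest, at 2984 bp, is the isolated Col9a1 peak.

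Where the lists met, the Sox6 peak was usually the narrower one. It was narrower in 16 of 17 overlaps (94.1%, 71.3 to 99.9), against 64.5% of all 18419 overlaps of the series, and it lay wholly inside the Sox9 peak in 9 (52.9%, 27.8 to 77.0), against 31.2%. Shared Sox6 peaks of the windows had a median width of 122 bp, and unshared ones 179.5 bp. Over the whole list these medians were 150 and 151 bp. For Sox9 the order was the other way round, with medians of 221 bp for shared and 162 bp for unshared peaks of the windows, and 186 and 173 bp over the whole list. The centres of the 17 pairs were a median of 55 bp apart (range 4.5 to 175), against 40.5 bp over the series, and 7 (41.2%, 18.4 to 67.1) were within 50 bp, against 58.5%. The widest Sox6 peaks were unshared in every window: 494 bp from 24226370 to 24226863 at Col9a1, 293 bp from 120711854 to 120712146 at Col9a2 and 380 bp from 180357279 to 180357658 at Col9a3.

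All 17 shared Sox6 peaks were in the first 50% of the list, where they lay among 19 unshared ones. The other 57 of the 93 Sox6 peaks were in the second 50%, and none of those was shared. A count of 0 of 57 allows a share of up to 5.26% by the rule of 3 counts and 6.27% as an exact two-sided upper limit, and over the whole list 8.02% of the second 50% were shared. Neighbouring peaks of 1 window share their surroundings, so the 57 peaks are not 57 independent sites. Shared Sox6 peaks had a median place at 14.8% of the list and unshared ones at 70.6%, against 19.4% and 58.6% over the whole list. That shared peaks come early is a property of the whole list and not particular to these genes. In the Sox9 list, 3 of 4 window peaks of the first 10% were shared, against 89.6% over the whole list, and 5 of 9 of the second 50%, against 69.5%. Each gene had a Sox9 peak in the first 2.41% of the Sox9 list, and each of these leading Sox9 peaks overlapped a Sox6 peak in the first 6.11% of the Sox6 list. The median place of all window peaks was at 64.4% of the Sox6 list (95% interval of the median from order statistics, 54.3 to 73.5) and at 33.4% of the Sox9 list (13.1 to 53.9, which includes the middle of the list). Ranked by width, widest first, the Sox6 median was at 42.6%.

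Among the first 23865 Sox6 peaks, 20 lay in the windows and 14 of them were shared (70.0%, 45.7 to 88.1), against 49.9% of all the first 23865. The interval includes that 49.9%, so no difference was seen at this list length. At Col9a1 these were 8 of 13, at Col9a2 2 of 2 and at Col9a3 4 of 5. At this list length the windows held fewer Sox6 than Sox9 peaks, 20 against 26. The greater number of Sox6 peaks at the type IX collagen genes thus came from places later than 23865, a limit that is set by the length of the Sox9 list and not by a measured strength.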

How the data were processed

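Peaks of 1 Sox6 ChIP library and of the authors' re-analysis of earlier Sox9 samples were used as deposited by the authors. The input DNA library was not analysed here. Bowtie and the build mm9 are listed, with no version or role, per the submitters' processing notes. The peak caller, its settings and any pooling were not given in the sources used here, apart from a mark FDR in the names of both lists that is not explained. The Sox9 list has no build of its own in these sources and was taken as mm9. Starts were read as counted from 0 and are printed counted from 1. Overlaps, nearest centres, tiles and clusters were computed in Python 3.11.15 (pandas 2.3.3, numpy 2.4.6, scipy 1.17.1). Overlap counts were checked against bedtools 2.31.1 and tested on simulated lists. Motifs were searched in RefSeq promoters of GRCm38.p6; coordinates were not converted between builds. Named peaks are all Sox9 peaks of a window (the 12 earliest where there are more), the shared, the 3 earliest and the widest Sox6 peaks. The windows, lists and measures were chosen with earlier results of these data known. Alternatives were other overlap rules, list lengths, window and tile bounds, cluster gaps and rank by width. The 8 heptamers and the tiles at equal list lengths were added after seeing the data.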

Additional observations from a re-analysis of the deposited data

How the results depend on the processing

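The share of shared window peaks moved with the overlap rule and with list length. Requiring 50% of both peaks to overlap gave 10.8% of Sox6 and 38.5% of Sox9 peaks, and a gap of up to 1000 bp gave 43.0% and 96.2%. The first 50% of each list held 36 Sox6 and 17 Sox9 window peaks and gave a Sox6 share of 33.3%, and equal list lengths left 20 Sox6 peaks with a share of 70.0%. For the 50% overlap rule and the first 50% of each list, no whole-list share is given here. Whether those values differ from the whole list was therefore not examined. Ranked by width, widest first, the median Sox6 place was at 42.6%. A cluster gap of 5 kb gave 6 Sox6 clusters in place of 3 and 2 Sox9 clusters in place of 4. At equal list lengths the tiles with fewer Sox6 peaks than the window were 99.7% for Col9a1, 89.2% for Col9a2 and 99.1% for Col9a3. The other 23 values for the windows together or for tiles and clusters moved by no more than the interval or the factor of 1.5 allowed for them, including those for centres within 250 bp, merged peaks, shortened windows and shifted tiles. Of 63 values for single windows, 16 moved further. The causes were not tested, except that fewer peaks follow from a shorter list. No paired analysis was possible because each factor has 1 list. Without scores or read counts, depth cannot be stated, and a site without a called peak is not shown to be unbound.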

Other observations

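Some Sox6 peaks of the Col9a1 window stood near each other in the deposited list. Ordered by place, 5 of the 64 steps between its 65 Sox6 peaks were no more than 10 places, among them places 42963 and 42966, 50967 and 50968, and 77178 and 77181. In the other windows this held for 1 of 8 steps at Col9a2 and 0 of 18 at Col9a3. For Sox9 it held for 0 of 14 steps at Col9a1, 0 of 2 at Col9a2 and 1 of 7 at Col9a3, between places 2544 and 2549. The windows differ in their number of peaks, no share over the whole list was computed, and these places were chosen after their values were seen.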
